A study of Mus musculus with 4 samples.

Results

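Genes for ion channels, aquaporins, ion pumps, carbonic anhydrases and the guanylin system of fluid secretion were compared between Elf4-KO and WT mice with colitis. Members were all rows of the deposited table whose gene symbol begins with one of the family stems Kcn, Scn, Cacn, Clcn, Clca, Ano, Trpa, Trpc, Trpm, Trpv, Aqp, Atp1a, Atp1b, Atp2a to Atp2c, Atp6, Best, P2r, Ryr, Itpr, Fxyd, Cftr, Guca, Gucy or Car with a number. This gave 100 of the 4121 genes in the table. The rule used the symbol alone and no measured value, although it was set with earlier results of these data known. Itpripl2, which is named after a receptor partner and is no channel, also begins with such a stem and was kept.

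Inflamed distal colon was taken for RNA sequencing from C57BL/6 mice aged 8 weeks on day 6 of treatment with 3% DSS (dextran sulfate sodium), which damages the lining of the colon. The Elf4-KO group had 2 samples from mice lacking Elf4, an Ets family transcription factor, and the WT group had 2 samples from wild-type mice. Both groups received DSS, and untreated mice were not analysed here. The sources used here do not give how the allele was made or whether samples of 1 genotype are separate animals.

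The table holds 1 FPKM value per genotype (fragments scaled by transcript length and library size), in which the authors combined both samples. No value therefore has an SD, an n or a replicate check, and read depth is unknown. Only genes called by the authors, with at least a 2-fold difference, are in the table, so "rose" and "fell" below rest on the authors' call, and genes outside the table are not analysed here. Of the 100 members, 50 had q = 0.000372 by the authors' deposited table, its smallest, and the other 50 had q between 0.000694 and 0.0494 there. Elf4 itself was 3.51 FPKM in Elf4-KO colon and 16.4 FPKM in WT colon.

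The colon absorbs salt and water at its surface and secretes chloride, bicarbonate and fluid from its crypts. Secretion runs through apical anion channels such as CFTR and is powered by the basolateral Na,K-ATPase and by potassium channels that keep the cell interior negative. Guanylin and uroguanylin bind the receptor guanylate cyclase Gucy2c at the apical surface, and the cyclic GMP it makes opens CFTR. In the wall beneath, calcium, sodium and potassium channels of smooth muscle, interstitial cells and enteric neurons set rhythm and contraction.

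Members were grouped by the tissue in which each gene is best known. These classes were set with earlier results of these data known, so the split between them is a description and not independent support. The 11 members without a class went both ways, 6 higher and 5 lower. All 29 listed genes of the epithelial class fell in Elf4-KO colon, by a median of 6.51-fold, while 41 of the 43 listed genes of the muscle and nerve classes rose, by a median of 3.06-fold. The listed genes were 29 of 38 annotated genes of the epithelial class, 18 of 38 of the muscle class and 25 of 86 of the nerve class. Most nerve genes and many muscle genes were therefore not in the table. Over all members, 58 were higher and 42 lower in Elf4-KO colon. Of all 4121 listed genes, 48.0% were higher and 52.0% lower. A difference of at least 4-fold was reached by 29 members that fell, beside 24.5% of all listed genes that fell this far, and by 14 that rose, beside 12.9% of all listed genes. Of the 29, 24 were epithelial, and of the 14, 10 were muscle or nerve genes.

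**Figure D1:**
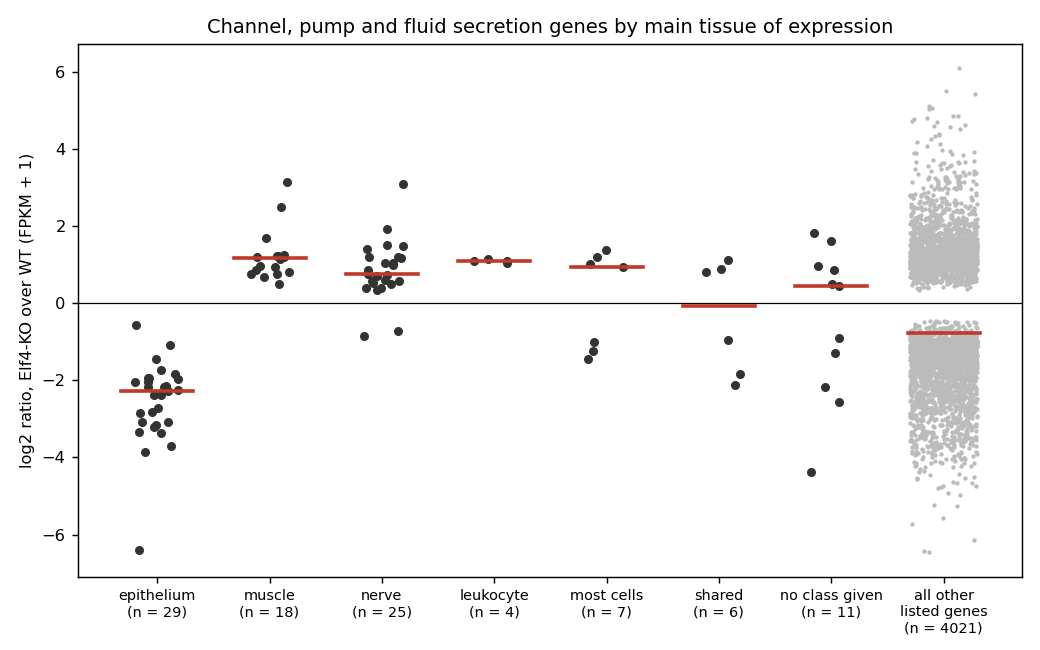
Log2 ratio of FPKM + 1 in Elf4-KO over WT colon (vertical axis) for each member, by the tissue it is best known from, beside the 4021 other listed genes in grey; points are genes and red lines are medians. All 29 epithelial points lie below 0, with a median of -2.28, while all 18 muscle points and 23 of 25 nerve points lie above 0. The gap around 0 in every column comes from the table's 2-fold limit.

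The summed level of the epithelial class was 1137 FPKM in Elf4-KO colon and 8126 FPKM in WT colon. The summed level of the muscle class was 415 FPKM in Elf4-KO colon and 91.0 FPKM in WT colon. Kcnj8 and Kcne4 held most of the muscle sum in Elf4-KO colon. Kcnj8 had 167 FPKM there and 28.6 FPKM in WT colon. Kcne4, whose locus in the table is far wider than the annotated gene, had 111 FPKM in Elf4-KO colon and 11.8 FPKM in WT colon. The summed level of the nerve class was 152 FPKM in Elf4-KO colon and 57.4 FPKM in WT colon. Epithelial genes made up most of the members' signal in both genotypes, but their sum in Elf4-KO colon was 13.99% of that in WT colon. The median log2 ratio over all 4121 listed genes was -0.76 on the log2(FPKM + 1) scale and -1.05 for folds without a pseudocount. Relative to these medians Clca3a2 changed sign for folds, Kcnf1 and P2ry4 changed sign on the log2(FPKM + 1) scale, and the other 97 members kept theirs.

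Markers of the cell types moved as well. All 10 pan-epithelial markers, among them Epcam and Cdh1, fell, by 8.23-fold to 19.4-fold with a median of 11.7-fold. Of 11 enteric neuron markers 7 were listed and rose, by a median of 2.98-fold, and of 6 enteric glia markers 3 were listed and rose, by a median of 3.18-fold. Of 6 endothelial markers 5 were listed and rose, by a median of 2.90-fold, and all 8 neutrophil markers rose. None of the 10 smooth muscle markers, among them Acta2, Myh11 and Des, was in the table. In bulk tissue, fewer cells of a type and less RNA per cell cannot be told apart, and the part of cell makeup in the results below was not tested.

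Because Elf4 belongs to the Ets family, the start regions of the members were searched for letters of the Ets core, GGAAGT, and of the intestinal caudal factors, TTTATNG, on both strands. RefSeq windows on GRCm38.p6, from 250 bases before to 50 after a gene's start, were found for 66 of the 100 members. Ets letters were present in 4 of 18 epithelial members (22.2%) and 4 of 27 muscle and nerve members (14.8%), beside 26.5% of all 27025 genes with a window. Caudal letters were present in 2 of 18 epithelial members (11.1%) and 2 of 27 muscle and nerve members (7.41%), beside 12.5% of all genes. The HNF4 letters CAAAGTCCA were in none of the 66 members, beside 0.555% of all genes, and the longer HNF1 motif was in none, beside 0.0111% of all genes. A match of letters is a description of the window and not a binding site.

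The 6 epithelial windows that hold Ets or caudal letters are printed 5′ to 3′ on the gene's own strand, with the matching letters in capitals. The positions are chr7:100176420-100176719 (plus strand) for Kcne3, chr14:20181733-20182032 (minus strand) for Kcnk5, chr9:66713436-66713735 (plus strand) for Car12, chr17:27057054-27057353 (plus strand) for Itpr3, chr11:84957504-84957803 (plus strand) for Car4 and chr7:123462044-123462343 (plus strand) for Aqp8. Kcne3 and Kcnk5 encode potassium channel subunits, Car12 and Car4 carbonic anhydrases, Itpr3 a calcium release channel and Aqp8 a water channel.
Kcne3: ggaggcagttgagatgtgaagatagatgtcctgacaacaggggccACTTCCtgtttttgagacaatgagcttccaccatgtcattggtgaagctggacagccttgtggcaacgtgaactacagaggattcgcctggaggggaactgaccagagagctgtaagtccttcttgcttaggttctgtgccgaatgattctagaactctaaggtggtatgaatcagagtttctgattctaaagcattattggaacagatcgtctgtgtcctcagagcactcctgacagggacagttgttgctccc
Kcnk5: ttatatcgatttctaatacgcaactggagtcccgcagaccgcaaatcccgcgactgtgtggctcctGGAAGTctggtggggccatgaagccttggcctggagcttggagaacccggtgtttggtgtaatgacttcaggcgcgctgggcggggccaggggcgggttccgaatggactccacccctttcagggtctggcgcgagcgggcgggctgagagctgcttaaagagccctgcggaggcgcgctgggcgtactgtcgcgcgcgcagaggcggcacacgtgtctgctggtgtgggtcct
Car12: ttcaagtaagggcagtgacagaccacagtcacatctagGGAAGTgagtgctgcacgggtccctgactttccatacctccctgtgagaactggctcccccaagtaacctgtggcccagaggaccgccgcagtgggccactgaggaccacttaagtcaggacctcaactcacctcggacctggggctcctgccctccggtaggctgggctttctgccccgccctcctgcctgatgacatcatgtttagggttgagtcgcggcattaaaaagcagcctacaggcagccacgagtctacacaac
Itpr3: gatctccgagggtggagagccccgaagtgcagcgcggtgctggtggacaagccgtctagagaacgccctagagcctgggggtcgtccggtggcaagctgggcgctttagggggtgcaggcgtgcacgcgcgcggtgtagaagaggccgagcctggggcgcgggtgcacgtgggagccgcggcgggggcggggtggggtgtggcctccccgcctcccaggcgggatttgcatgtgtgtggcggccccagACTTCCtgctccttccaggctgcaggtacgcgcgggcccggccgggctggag
Car4: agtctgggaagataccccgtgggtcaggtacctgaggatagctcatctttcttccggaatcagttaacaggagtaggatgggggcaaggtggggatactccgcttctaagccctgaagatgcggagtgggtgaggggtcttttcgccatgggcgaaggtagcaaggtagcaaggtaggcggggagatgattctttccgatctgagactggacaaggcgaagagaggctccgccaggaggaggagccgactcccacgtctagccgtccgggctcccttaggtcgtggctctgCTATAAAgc
Aqp8: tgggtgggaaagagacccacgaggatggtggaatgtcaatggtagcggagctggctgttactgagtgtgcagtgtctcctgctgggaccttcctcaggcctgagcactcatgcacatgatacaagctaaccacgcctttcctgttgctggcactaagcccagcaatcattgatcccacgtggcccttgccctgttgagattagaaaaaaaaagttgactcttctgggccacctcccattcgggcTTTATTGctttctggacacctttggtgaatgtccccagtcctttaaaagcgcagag
In Kcne3 and Itpr3 the letters read ACTTCC, the reverse complement of the Ets core, and in Car4 they read CTATAAA, the reverse complement of a caudal match. All 6 genes were lower in Elf4-KO colon, from 3.10-fold for Itpr3 to 13.1-fold for Car4. They were taken from the epithelial class, of which all 29 genes fell, so their direction says nothing about the letters. Over all classes 13 members held Ets letters and went both ways. Ano6, Clcn6, Itpripl2, Gucy1a2, Kcnab1, Kcnh1 and Kcnt2 were higher in Elf4-KO colon. Ano7, Clcn3, Car12, Itpr3, Kcne3 and Kcnk5 were lower.

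The guanylin system fell as a ligand and receptor set. Guca2a (chr4:119637704-119639471), the guanylin gene, had 196.5 FPKM in Elf4-KO colon and 2043 FPKM in WT colon, a 10.4-fold difference. It was the member with the highest level in WT colon and had rank 3 in Elf4-KO colon. Guca2b (chr4:119656607-119658954), the uroguanylin gene, lies 17.1 kb away and had 1.72 FPKM in Elf4-KO colon and 26.7 FPKM in WT colon, a 15.6-fold difference. The receptor gene Gucy2c had 4.47 FPKM in Elf4-KO colon and 45.0 FPKM in WT colon, a 10.1-fold difference. Guanylin transcript was thus 114 times that of uroguanylin in Elf4-KO colon and 76.4 times in WT colon, per transcript length.

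Cftr, the anion channel genes Best2 and Clcn2 and the anoctamin gene Ano9 fell too, from WT levels below that of Guca2a. Cftr (chr6:18170687-18322768) had 0.620 FPKM in Elf4-KO colon and 6.86 FPKM in WT colon, 11.1-fold lower. Best2, a bestrophin anion channel of goblet cells, had 0.510 FPKM in Elf4-KO colon and 5.65 FPKM in WT colon, also 11.1-fold lower. Clcn2, a chloride channel of the basolateral membrane, had 10.6 FPKM in Elf4-KO colon and 75.4 FPKM in WT colon, 7.10-fold lower. Ano9, an anoctamin, had 1.53 FPKM in Elf4-KO colon and 22.4 FPKM in WT colon, 14.7-fold lower. The folds of Cftr, Best2 and Ano9 lay within the range of the pan-epithelial markers, and that of Clcn2 lay below it.

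Clca genes encode secreted or membrane-bound proteins that modulate chloride conductance and are not channels themselves. Of 7 annotated Clca genes 6 were listed, 5 lower and 1 higher. Clca4b had 59.5 FPKM in Elf4-KO colon and 885 FPKM in WT colon, 14.9-fold lower, and Clca4a had 38.8 FPKM in Elf4-KO colon and 208 FPKM in WT colon, 5.36-fold lower. Clca1, a product of goblet cells, had rank 2 among the members in Elf4-KO colon, with 229.9 FPKM there and 822 FPKM in WT colon, 3.58-fold lower. Clca3b fell 25.6-fold, to 4.03 FPKM in Elf4-KO colon, against 103 FPKM in WT colon. Clca3a2 fell to 5.05 FPKM in Elf4-KO colon, against 10.4 FPKM in WT colon (with q = 0.0109 by the authors' deposited table). Clca3a1 rose to 12.6 FPKM in Elf4-KO colon, against 5.94 FPKM in WT colon (with q = 0.00184 by the authors' deposited table). These 6 genes belong to the same family and lie side by side on chromosome 3, where the split of fragments among similar copies is uncertain.

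Water channel genes moved both ways and by very different amounts. Aqp4 (chr18:15389394-15403684), which passes water through the basolateral membrane, had 3.07 FPKM in Elf4-KO colon and 341 FPKM in WT colon. Its 111-fold difference was the largest among all 100 members, and in the epithelial class it alone exceeded every pan-epithelial marker. The Aqp4 locus in the table is only 0.665 times as long as the annotated gene, and whether this affects its value was not tested. Aqp8, an apical water channel of colonocytes, had 40.4 FPKM in Elf4-KO colon and 158 FPKM in WT colon, 3.92-fold lower. The Aqp4 level was thus 0.0759 times that of Aqp8 in Elf4-KO colon and 2.15 times in WT colon, so their order turned round. Aqp11, an intracellular aquaporin, had 0.772 FPKM in Elf4-KO colon and 3.37 FPKM in WT colon (with q = 0.0190 by the authors' deposited table). Aqp1, the water channel of vessels and red cells, rose to 48.1 FPKM in Elf4-KO colon, against 21.5 FPKM in WT colon. Aqp9, a glycerol and water channel of leukocytes, rose to 1.83 FPKM in Elf4-KO colon, against 0.337 FPKM in WT colon (with q = 0.00335 by the authors' deposited table).

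Carbonic anhydrases supply bicarbonate and protons for exchange and secretion. Of 16 annotated genes 7 were listed, 6 lower and 1 higher. Car4, anchored at the apical membrane, had 93.0 FPKM in Elf4-KO colon and 1214 FPKM in WT colon, 13.1-fold lower. Car1, a cytosolic form, had 271 FPKM in Elf4-KO colon and 1115 FPKM in WT colon, 4.11-fold lower, and was the most abundant member in Elf4-KO colon. The Car4 level was 0.343 times that of Car1 in Elf4-KO colon and 1.09 times in WT colon. Car2, the other abundant cytosolic form, had 38.3 FPKM in Elf4-KO colon and 203 FPKM in WT colon, 5.30-fold lower. The membrane forms Car9 and Car12 fell 5.16-fold and 4.60-fold, Car9 to 5.80 FPKM and Car12 to 3.53 FPKM in Elf4-KO colon. Car8, a catalytically inactive form placed in the nerve class, had 2.17 FPKM in Elf4-KO colon and 4.76 FPKM in WT colon (with q = 0.00832 by the authors' deposited table). The mitochondrial form Car5b was the exception, with 4.39 FPKM in Elf4-KO colon and 1.66 FPKM in WT colon (with q = 0.00238 by the authors' deposited table).

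The listed pump genes of the epithelial class fell. Atp1b1, the main beta subunit of the epithelial Na,K-ATPase, had 75.4 FPKM in Elf4-KO colon and 546 FPKM in WT colon, 7.24-fold lower, in a table locus that also spans other genes. Atp1b2, a beta subunit of glia and nerve, rose to 17.4 FPKM in Elf4-KO colon, against 7.17 FPKM in WT colon. The Atp1b1 level was 4.32 times that of Atp1b2 in Elf4-KO colon and 76.2 times in WT colon. The calcium pump of the endoplasmic reticulum Atp2a3 had 29.6 FPKM in Elf4-KO colon and 146 FPKM in WT colon, 4.92-fold lower. The secretory pathway pump Atp2c2 had 1.26 FPKM in Elf4-KO colon and 19.1 FPKM in WT colon, 15.1-fold lower. The FXYD regulators of the Na,K-ATPase moved both ways. Fxyd3 of epithelium had 4.84 FPKM in Elf4-KO colon and 25.6 FPKM in WT colon (with q = 0.0313 by the authors' deposited table). Fxyd5 had 130 FPKM in Elf4-KO colon and 60.6 FPKM in WT colon (with q = 0.000998 by the authors' deposited table), and Fxyd7 of nerve had 7.87 FPKM in Elf4-KO colon and 2.89 FPKM in WT colon (q = 0.0432 there).

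Of 26 annotated V-ATPase genes, which acidify organelles, 2 were listed. Atp6v0a2 fell to 18.3 FPKM in Elf4-KO colon, against 38.0 FPKM in WT colon. Atp6v0d2, a subunit known from osteoclasts and macrophages, rose to 5.02 FPKM in Elf4-KO colon, against 0.960 FPKM in WT colon.

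The absorptive cation channel genes Scnn1a and Trpm6 fell, as did several genes for other channels and a receptor. Scnn1a, the alpha subunit of the epithelial sodium channel, had 3.26 FPKM in Elf4-KO colon and 15.6 FPKM in WT colon, 4.78-fold lower. The beta and gamma subunit genes were not in the table. Trpm6, a magnesium channel, had 1.29 FPKM in Elf4-KO colon and 8.38 FPKM in WT colon, 6.51-fold lower. The calcium-activated cation channel gene Trpm4 had 6.55 FPKM in Elf4-KO colon and 31.9 FPKM in WT colon, 4.88-fold lower. Trpv3, best known from keratinocytes, had 0.159 FPKM in Elf4-KO colon and 4.19 FPKM in WT colon, 26.4-fold lower. Itpr3, which releases stored calcium, had 4.83 FPKM in Elf4-KO colon and 15.0 FPKM in WT colon, the smallest fall of the epithelial class at 3.10-fold. P2ry4, a receptor for extracellular nucleotides, stayed under 1 FPKM in both, with 0.236 FPKM in Elf4-KO colon and 0.840 FPKM in WT colon (with q = 0.0315 by the authors' deposited table).

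**Figure D2:**
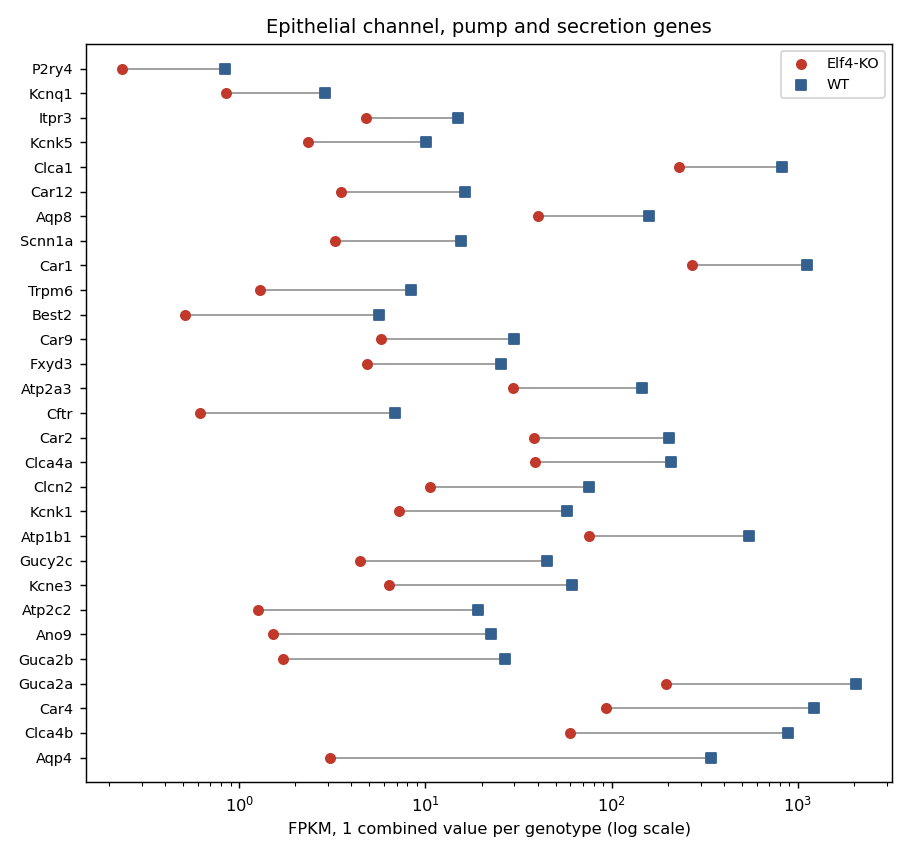
FPKM on a log axis for the 29 listed epithelial members, 1 combined value for Elf4-KO colon (red circles) and 1 for WT colon (blue squares), ordered by log2 ratio. Every red circle lies left of its blue square, with the longest gap for Aqp4, 3.07 FPKM in Elf4-KO colon and 341 FPKM in WT colon.

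The epithelial members did not fall by a common amount. Of the 29, 18 fell by less than every pan-epithelial marker, 10 fell within the markers' range of 8.23-fold to 19.4-fold, and Aqp4 fell by more. The 10 were Atp2c2, Ano9, Best2, Car4, Cftr, Clca4b, Guca2a, Guca2b, Gucy2c and Kcne3. Among the 18 were Aqp8, Car1, Car2, Clca1, Itpr3 and Scnn1a. Levels of at least 10 FPKM were reached by 11 epithelial members in Elf4-KO colon and by 24 in WT colon.

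Most other listed fluid and electrolyte transport genes of colon epithelium moved the same way. Of 36 annotated genes in a list of such genes, 15 were in the table, beside 17.4% of all protein-coding genes. The rest of that list was not in the table. Of the 15, 14 were lower and 1 higher, beside 52.0% of all listed genes that were lower. Slc26a3, the apical chloride and bicarbonate exchanger, fell 13.9-fold, Hsd11b2, which protects the mineralocorticoid receptor from glucocorticoids, fell 13.7-fold, and the receptor gene Nr3c2 fell 7.07-fold. Vipr1, the receptor through which VIP drives secretion, fell 11.1-fold to 4.02 FPKM in Elf4-KO colon, while Vip itself was 439 FPKM in Elf4-KO colon and 77.2 FPKM in WT colon. Prss8, a protease that activates the sodium channel, fell 8.44-fold (with q = 0.0321 by the authors' deposited table). Sgk1, a kinase that raises sodium channel activity, was the exception, with 165 FPKM in Elf4-KO colon and 29.3 FPKM in WT colon. The cotransporter gene Slc12a2 and the sodium and proton exchanger gene Slc9a3 were not in the table.

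Potassium channel genes moved both ways. Of 94 annotated genes 29 were listed, 22 higher and 7 lower. In epithelium, Kcnq1 forms with Kcne3 the channel that sustains chloride secretion. Kcne3 had 6.36 FPKM in Elf4-KO colon and 61.2 FPKM in WT colon, 9.62-fold lower. Kcnq1, the pore, had 0.846 FPKM in Elf4-KO colon and 2.90 FPKM in WT colon, 3.43-fold lower (with q = 0.0253 by the authors' deposited table). Kcne3 transcript was therefore 7.52 times that of Kcnq1 in Elf4-KO colon and 21.1 times in WT colon. The leak channel gene Kcnk1 had 7.26 FPKM in Elf4-KO colon and 57.3 FPKM in WT colon, and its relatives Kcnk6 and Kcnk5 fell 3.99-fold and 4.34-fold. Kcnn4, a calcium-activated channel of both epithelium and lymphocytes, had 5.42 FPKM in Elf4-KO colon and 11.5 FPKM in WT colon (with q = 0.0126 by the authors' deposited table). The other gene that fell was Kcnf1, a silent subunit of nerve, with 0.610 FPKM in Elf4-KO colon and 1.66 FPKM in WT colon (with q = 0.00912 by the authors' deposited table).

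Among the potassium genes that rose, 2 stood above the rest in level. Kcnj8 (chr6:142564837-142571614), the pore of the ATP-sensitive channel of vascular muscle and pericytes, had 167 FPKM in Elf4-KO colon and 28.6 FPKM in WT colon, 5.84-fold higher. Its sulfonylurea receptor partner Abcc9, from the list of muscle genes, had 91.5 FPKM in Elf4-KO colon and 18.9 FPKM in WT colon, 4.83-fold higher. Kcne4, an accessory subunit that restrains potassium currents, had 111 FPKM in Elf4-KO colon and 11.8 FPKM in WT colon, 9.43-fold higher, although its locus in the table is far wider than the annotated gene. By level, Kcnj8 and Kcne4 had ranks 1 and 2 of the 29 in Elf4-KO colon and ranks 3 and 5 in WT colon, where Kcne3 and Kcnk1 led. Kcnn3, a calcium-activated channel of interstitial cells, had 12.2 FPKM in Elf4-KO colon and 4.70 FPKM in WT colon. Kcnj15, an inward rectifier with no tissue class, rose to 5.13 FPKM in Elf4-KO colon, against 0.754 FPKM in WT colon.

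**Figure D3:**
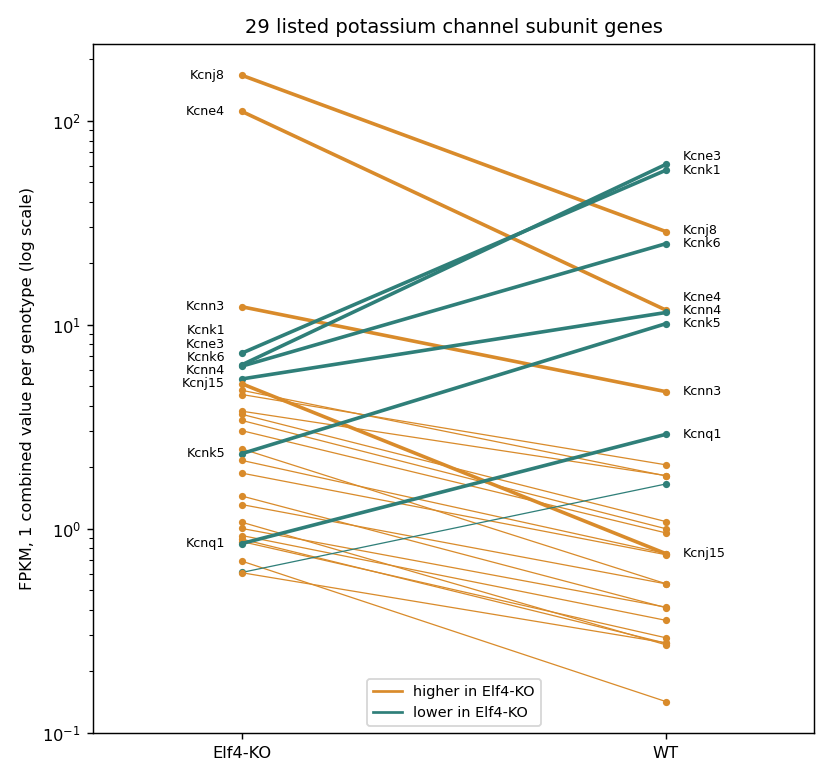
FPKM on a log axis of the 29 listed potassium channel subunit genes, with Elf4-KO colon at the left and WT colon at the right; each line joins the 2 values of a gene, and names mark the most abundant genes, Kcnk5, Kcnj15 and Kcnq1. Kcnj8 and Kcne4 lead in Elf4-KO colon, with 167 and 111 FPKM, while Kcne3 and Kcnk1 lead in WT colon, with 61.2 and 57.3 FPKM.

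All listed Cacn genes, named for subunits of voltage-gated calcium channels, rose. Of 26 annotated Cacn genes 8 were listed and 8 were higher in Elf4-KO colon. Cacnb4, a beta subunit known from neurons, had 10.5 FPKM in Elf4-KO colon and 0.351 FPKM in WT colon, and its 29.9-fold rise was the largest among the members that rose. The pore of the main smooth muscle calcium channel, Cacna1c, had 11.9 FPKM in Elf4-KO colon and 4.46 FPKM in WT colon (with q = 0.0168 by the authors' deposited table). Its partner Cacna2d1 had 38.1 FPKM in Elf4-KO colon and 11.1 FPKM in WT colon, 3.45-fold higher. Cacna1d, a related pore of neurons and pacemaker cells, had 10.02 FPKM in Elf4-KO colon and 1.91 FPKM in WT colon (with q = 0.00184 by the authors' deposited table). The low-voltage channels Cacna1g, Cacna1h and Cacna1i reached 2.91, 19.3 and 2.40 FPKM in Elf4-KO colon, with rises of 4.13-fold, 2.45-fold and 4.89-fold. Cacng7, an accessory subunit of nerve, had 24.1 FPKM in Elf4-KO colon and 7.79 FPKM in WT colon.

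Other muscle members rose, mostly at low levels. The nitric oxide receptor subunit genes Gucy1b3 (named Gucy1b1 in the annotation) and Gucy1a2 rose 2.03-fold and 3.46-fold, Gucy1b3 to 28.2 FPKM in Elf4-KO colon, against 13.9 FPKM in WT colon. The receptor-operated cation channels Trpc1 and Trpc4 rose 3.06-fold and 4.28-fold, Trpc1 to 5.44 FPKM in Elf4-KO colon, against 1.78 FPKM in WT colon. Ryr2, which releases stored calcium in muscle, rose 2.01-fold to 1.36 FPKM in Elf4-KO colon. The potassium channel genes Kcnk2, Kcnab1 and Kcnj12 and P2rx1, an ATP-gated channel, rose as well. Kcnk2 reached 2.46 FPKM, Kcnab1 3.64 FPKM, Kcnj12 1.45 FPKM and P2rx1 2.83 FPKM in Elf4-KO colon. Many genes best known from gut smooth muscle, among them Kcnmb1, Itpr1, Fxyd1 and Gucy1a1, were not in the table. Of a further 24 annotated pacemaker and contraction genes, 9 were listed, 6 higher and 3 lower. Kit, the marker of interstitial cells of Cajal, rose 2.22-fold (with q = 0.00184 by the authors' deposited table), Pdgfra rose 2.84-fold and the gap junction gene Gja1 rose 3.14-fold. The calmodulin gene Calm3 fell 2.53-fold, and the calcium store gene Casq2 fell 2.56-fold, with q = 0.0496 for Casq2 by the authors' deposited table.

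Sodium channel genes rose. All 6 listed of 14 voltage-gated sodium channel genes were higher in Elf4-KO colon. Scn7a, a sodium sensor of glia, had 20.7 FPKM in Elf4-KO colon and 6.85 FPKM in WT colon, 3.03-fold higher. Scn3b, a beta subunit, had 3.87 FPKM in Elf4-KO colon and 0.840 FPKM in WT colon, 4.61-fold higher. Scn9a, the pain-related channel of sensory neurons, and Scn4b stayed under 1 FPKM in both genotypes. Of the potassium genes of nerve, those other than Kcnf1 rose, at low levels. Kcns1 had 4.77 FPKM in Elf4-KO colon and 1.81 FPKM in WT colon, Kcns3 had 3.77 FPKM in Elf4-KO colon and 1.82 FPKM in WT colon, and Kcna2, a delayed rectifier of axons, had 3.02 FPKM in Elf4-KO colon and 0.953 FPKM in WT colon. Kcna1, Kcna6 and Kcnt2 reached between 1.08 and 2.16 FPKM in Elf4-KO colon, while Kcnq3, Kcnt1, Kcnh1 and Kcnb2 stayed under 1 FPKM in both genotypes.

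**Figure D4:**
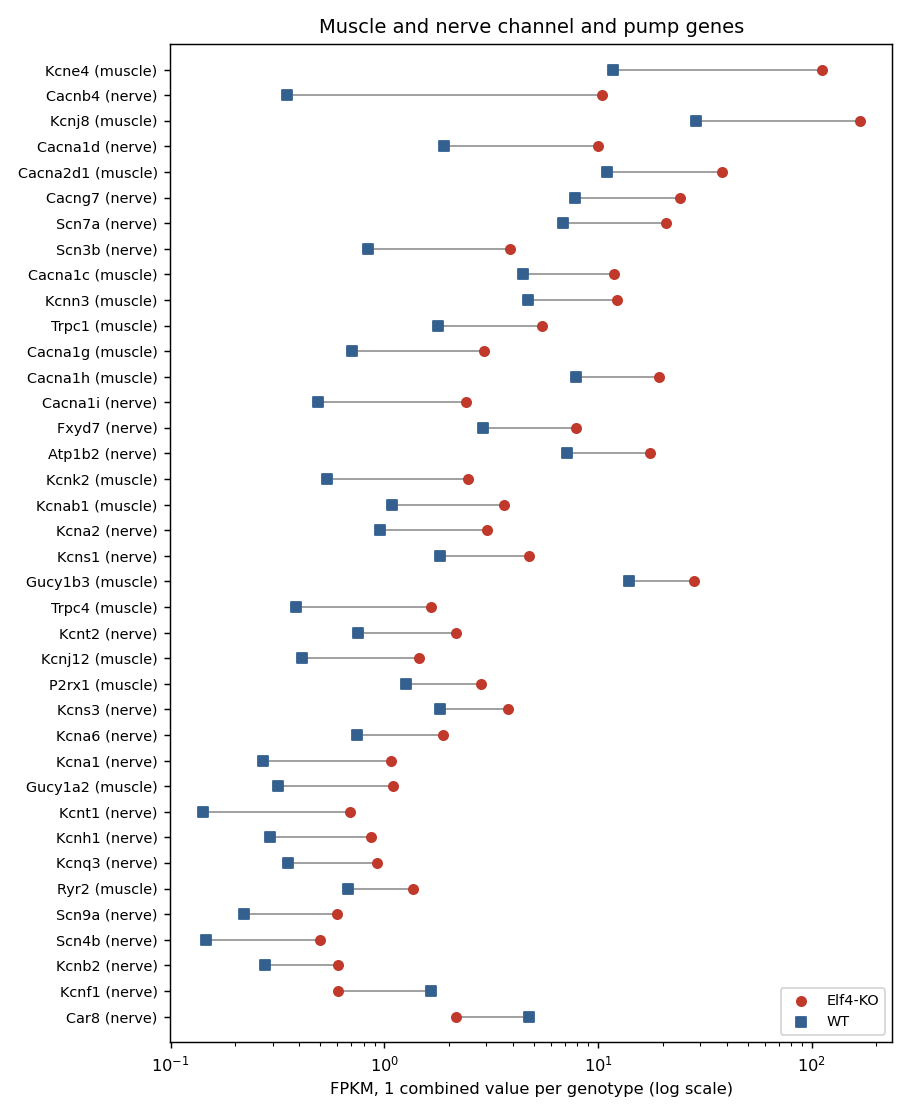
FPKM on a log axis for 38 muscle and nerve members, 1 combined value for Elf4-KO colon (red circles) and 1 for WT colon (blue squares), ordered by log2 ratio. For 36 genes the red circle lies right of the blue square, and for Kcnf1 and Car8 it lies left.

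Members of leukocytes and of most cells completed the set. All 4 listed leukocyte members rose. Besides Aqp9 and Fxyd5, these were Trpm2, an oxidant-sensing channel, with 8.10 FPKM in Elf4-KO colon and 3.43 FPKM in WT colon, and Kcnk13, known from microglia, with 3.39 FPKM in Elf4-KO colon and 0.999 FPKM in WT colon. By the authors' deposited table, q was 0.00406 for Trpm2 and 0.00156 for Kcnk13. Of 7 listed members found in most cells, 4 rose and 3 fell. Ano6, a scramblase, rose to 33.6 FPKM in Elf4-KO colon, against 13.99 FPKM in WT colon, Itpripl2 to 24.5 FPKM, against 8.79 FPKM in WT colon, and the exchanger gene Clcn6 to 5.44 FPKM, against 2.38 FPKM in WT colon. Its relative Clcn3 fell to 11.7 FPKM in Elf4-KO colon, against 29.1 FPKM in WT colon. Among genes shared by several tissues, the sensory channels Trpv4 and Trpa1 rose 2.21-fold and 2.50-fold, Trpv4 to 3.49 FPKM and Trpa1 to 3.12 FPKM in Elf4-KO colon. The remaining members had no tissue class. Of these, Ano7 fell to 0.859 FPKM in Elf4-KO colon, against 9.95 FPKM in WT colon, while Kcnj5 rose to 1.002 FPKM, against 0.412 FPKM in WT colon, and Trpm3 to 0.501 FPKM, against 0.103 FPKM in WT colon.

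**Figure D5:**
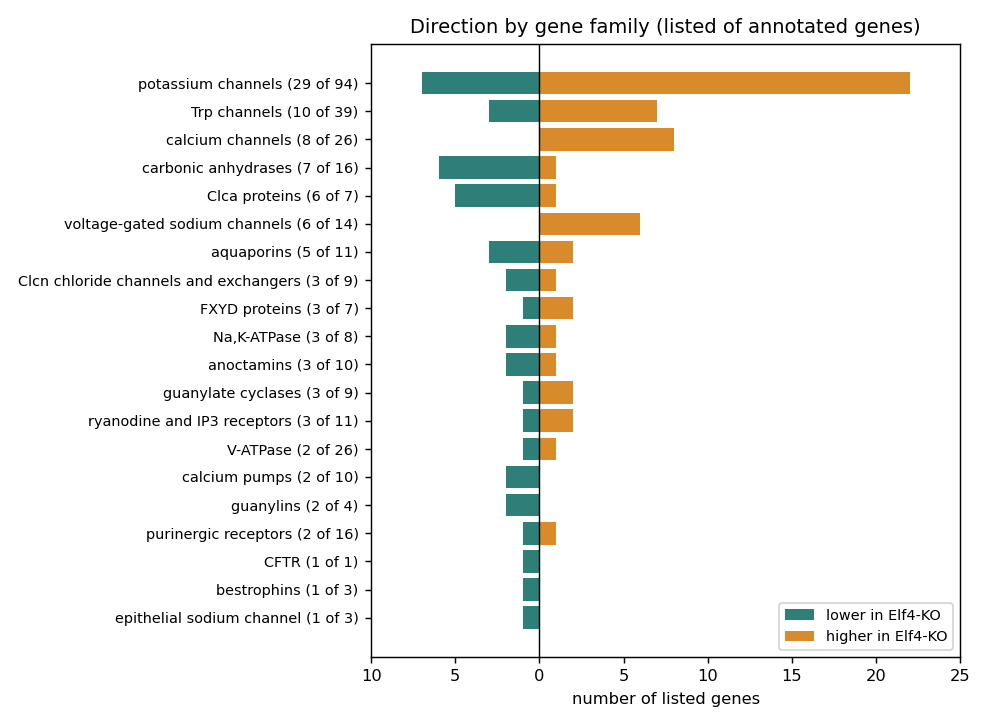
Number of listed genes per family that were lower (left of 0) or higher (right of 0) in Elf4-KO than in WT colon; labels give the listed and the annotated protein-coding genes. All 8 calcium channel and 6 voltage-gated sodium channel genes point right, while 6 of 7 carbonic anhydrases and 5 of 6 Clca genes point left.

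Of 309 annotated protein-coding genes in these families, the 100 listed were 32.4%, beside 17.4% of all 22028 protein-coding genes in the annotation that were listed. A level under 1 FPKM in both genotypes was found for 9 of the 100 members, beside 3.83% of all listed genes. Of the 9, 7 were nerve genes, which is 28% of the listed nerve class, and no member was listed at 0. At 4 members the locus in the table was at least 2 times as long as the annotated gene, by 132 times for Kcne4, 7.93 times for Atp1b1, 6.67 times for Kcne3 and 2.03 times for Fxyd3, and whether neighbouring transcripts were counted with them was not tested. Another protein-coding gene lay in the table's locus of Atp1b1, Clcn2, Fxyd3, Cacna1h, Cacna1c, Cacna1d and Kcnh1, and their values are uncertain in that respect.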

How the data were processed

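FPKM values, p-values and q-values were used as the authors deposited them. The submitters' processing notes name Bowtie 0.12.2, Cufflinks 2.2.1 and mm8, giving no roles. Per the labels' protocols, Trizol RNA from frozen colon went into Vazyme mRNA-seq libraries. Strand, depth and how the samples of a genotype were combined are not given in the sources used here. FPKM corrects for transcript length, so levels were compared between genes per length. All 100 members were found in GENCODE M21 on GRCm38, all on the annotated chromosome, with 83 equal starts after adding 1 and 81 equal ends. Coordinates are therefore given on GRCm38, counting from 1.

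The members, tissue classes and lists were chosen with earlier results of these data known. Classes follow the tissue each gene is best known from, and 11 members had none. Members were named except 7, whose values are not reported here but count in the totals, and other genes only from the transport, muscle and marker lists. Folds come from the FPKM values alone, and log2 ratios from FPKM + 1. With 1 value per genotype no test between genotypes was run, and lists are described by counts and medians beside all listed genes. The counting step was checked on simulated data. Alternatives were q of at most 0.01, a 4-fold limit, minimums of 1 and 5 FPKM, pseudocounts of 0.1 and 0, centring, and other memberships. Python 3.11.15, numpy 2.4.6, pandas 2.3.3 and matplotlib 3.10.9 were used.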

Additional observations from a re-analysis of the deposited data

How the results depend on the processing

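No paired analysis was possible because each genotype has a single combined value, and for that reason leaving out a sample and another normalization were not run. A value was taken as moved past 1.5 times the reported one, since there is no replicate spread. Of 48 alternative values 35 moved by less. Among these, leaving out Itpripl2, a gene of most cells that rose, could not change the class values or the count that fell. The count of members lower in Elf4-KO colon (42) moved by less under every alternative run on it. So did the count (29) and the median (-2.28) of the epithelial class. The epithelial count ran from 24 to 32 genes and its median from -2.70 to -1.52. The 32 came from adding the class shared by several tissues, which also brings in 3 genes that rose. The members higher in Elf4-KO colon numbered 58, but 38 with q of at most 0.01, 14 with at least 4-fold and 24 with at least 5 FPKM. The muscle and nerve genes higher in Elf4-KO colon numbered 41, and 24, 10 and 15 under the same 3 limits, by construction fewer. Their median log2 ratio, 0.97, became 1.60 with a pseudocount of 0 and 1.73 when centred on the table median. The median over all members, 0.55, lies between classes of opposite sign. It turned to -2.14 with at least 4-fold and -1.60 with at least 5 FPKM, limits that leave fewer of the genes that rose, and was 1.10 and 1.15 with pseudocounts of 0.1 and 0 and 1.31 when centred. Depth is unknown, and values under 1 FPKM rest on few fragments.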

Other observations

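Members that lie near each other in the genome did not all move together. Of 13 pairs of neighbouring members no more than 200 kb apart, 9 had the same direction and 4 opposite directions. The same share over all listed genes was not computed, so these counts have no baseline. Several of the 9 pairs lie in the Clca cluster, where the split of fragments is uncertain. Atp2a3, a calcium pump gene that fell 4.92-fold, lies 6.06 kb from P2rx1, which rose 2.24-fold (with q = 0.0430 by the authors' deposited table). On chromosome 7, Fxyd5 and Fxyd7 rose and Fxyd3, 7.87 kb from Fxyd7, fell. Fxyd5 and Fxyd7 are 0.031 kb apart in the table, and their values are uncertain in that respect. In the Clca cluster on chromosome 3, Clca3a1 rose and the 5 genes beyond it fell. Car1 and Car2, Guca2a and Guca2b, Kcna1 and Kcna6, and Scn9a and Scn7a were neighbours that moved the same way.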
